A study of Mus musculus with 8 samples.

Results

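The genes that mark a neuron as GABAergic or glutamatergic were read out in sorted somatostatin (SST) neurons of the tuberal nucleus (TN), a small nucleus of the lateral tuberal hypothalamus that takes part in feeding. The set holds 6 of the 35968 genes to which transcripts could be matched. They were chosen by function, 3 on the GABA side (*Gad1*, *Gad2* and *Slc32a1*) and 3 on the glutamate side (*Slc17a6*, *Slc17a7* and *Slc17a8*), with no threshold on a measured value. All 6 were found in the files, and 5 had enough counts to be tested between the sexes. The mice were adult *Sst-Cre* heterozygotes, in which the *Sst* locus drives Cre recombinase, and all had received the same AAV with a Cre-dependent tdTomato in the TN, so that females and males differed in sex alone as far as the labels say. Females had estrous cycles and males kept their gonads, and exact ages were not given in the sources used here. Red cells were sorted and sequenced in bulk, with 1 library for each of 4 females and 4 males. Cre reports cells that have expressed *Sst*, the sort was by fluorescence from a dissected block of tissue, and no library of unsorted cells was analysed here.

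GABA neurons make their transmitter from glutamate with the glutamate decarboxylases GAD67 (*Gad1*) and GAD65 (*Gad2*) and load it into synaptic vesicles with the vesicular GABA transporter VGAT (*Slc32a1*). Glutamate neurons are marked instead by a vesicular glutamate transporter, VGLUT2 (*Slc17a6*) in most of the hypothalamus and thalamus, VGLUT1 (*Slc17a7*) in cortex and hippocampus, and VGLUT3 (*Slc17a8*) in scattered cells that often release another transmitter as well. SST neurons of the TN are known as GABAergic cells, while neighboring nuclei such as the ventromedial nucleus are largely glutamatergic. In bulk RNA, fewer cells of a type and less RNA per cell cannot be told apart.

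The sequences that bear most on the balance between the sides belong to a short transcript of *Slc17a6*. Slc17a6-201, the protein-coding transcript, has 12 exons and 4137 bases. Slc17a6-204, annotated as a processed transcript that makes no protein, has 6 exons and 663 bases, and starts in an exon of its own that lies in the intron between exons 3 and 4 of Slc17a6-201. Its second exon is exon 4 of the coding transcript. The junctions are shown because short reads from the shared exons cannot say which transcript they came from, whereas these junctions can. Lower case marks the exon that differs, at chr7:51629480-51629553 for Slc17a6-204 (exon 1) and at chr7:51626844-51626962 for Slc17a6-201 (exon 3), and capitals mark the first 26 bases of the exon both share, at chr7:51645005-51645030 (GENCODE M21 on GRCm38, plus strand).
Slc17a6-204: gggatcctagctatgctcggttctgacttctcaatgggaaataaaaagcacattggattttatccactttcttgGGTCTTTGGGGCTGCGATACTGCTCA
Slc17a6-201: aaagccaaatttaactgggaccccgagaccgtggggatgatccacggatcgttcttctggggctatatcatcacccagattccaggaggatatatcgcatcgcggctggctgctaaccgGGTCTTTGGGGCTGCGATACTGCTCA
Of the 633 stretches of 31 bases in Slc17a6-204, the length over which the authors' assignment tool matches reads by default, 528 (83.4%) also occur in Slc17a6-201.

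The 3 GABA genes lie on chromosome 2. Their promoters are shown as well because their levels moved together over the mice (below), with every CG dinucleotide in capitals, read on the plus strand of GRCm38.p6 from 250 bases before to 50 bases after the start of the gene in RefSeq. The windows are chr2:70561879-70562178 for *Gad1*, chr2:22622077-22622376 for *Gad2* and chr2:158610508-158610807 for *Slc32a1*.
Gad1: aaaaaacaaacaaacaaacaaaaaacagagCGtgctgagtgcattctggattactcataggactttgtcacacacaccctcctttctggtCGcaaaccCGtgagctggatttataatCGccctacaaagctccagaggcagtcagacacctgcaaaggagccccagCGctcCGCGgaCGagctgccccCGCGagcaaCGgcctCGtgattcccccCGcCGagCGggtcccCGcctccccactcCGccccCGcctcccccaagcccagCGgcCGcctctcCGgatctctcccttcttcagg
Gad2: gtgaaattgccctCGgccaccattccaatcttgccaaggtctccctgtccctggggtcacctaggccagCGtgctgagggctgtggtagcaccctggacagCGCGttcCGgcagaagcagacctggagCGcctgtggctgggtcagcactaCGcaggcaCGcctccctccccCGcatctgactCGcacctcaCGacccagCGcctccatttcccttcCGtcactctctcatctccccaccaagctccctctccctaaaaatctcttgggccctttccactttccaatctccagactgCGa
Slc32a1: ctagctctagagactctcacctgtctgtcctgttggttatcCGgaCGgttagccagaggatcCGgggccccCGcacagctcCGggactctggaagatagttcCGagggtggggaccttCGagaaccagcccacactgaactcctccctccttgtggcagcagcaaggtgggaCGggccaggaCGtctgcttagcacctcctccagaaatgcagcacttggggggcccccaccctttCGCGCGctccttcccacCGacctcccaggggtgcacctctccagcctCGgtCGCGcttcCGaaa
CG occurred 21, 14 and 17 times in the *Gad1*, *Gad2* and *Slc32a1* windows, with a median of 7 over 32851 such windows, of which 94.6% held at least 1. As many or more CG were found in 24.8%, 36.3% and 31.4% of all windows, respectively, so none of the 3 stood far from promoters in general. The windows of *Slc17a6* held 8 and 3. All 6 genes matched RefSeq windows.

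Every library held both GABA and glutamate genes, with the GABA genes higher. Levels of different genes are given as TPM (transcripts-per-million, which divides by transcript length), and changes between mice as CPM (counts-per-million, scaled by edgeR's TMM method). *Gad1* (ENSMUSG00000070880.10, 2:70553072-70602014) was the highest of the 6 at 242, 252, 324 and 200 TPM in females 1 to 4, with 294, 202, 249 and 177 TPM in males 1 to 4. Its mean was 254 ± 51.4 among females and 231 ± 51.8 among males (SD, n = 4 per sex), and *Gad1* ranked 536 among all genes by mean TPM. *Gad2* (ENSMUSG00000026787.3, 2:22622205-22693874) stood at 130, 114, 178 and 105 TPM in females and 145, 97.7, 136 and 96.5 TPM in males. For both enzymes the ranges of the sexes overlapped in part, from 200 to 294 TPM for *Gad1* and from 105 to 145 TPM for *Gad2*. *Slc32a1* (ENSMUSG00000037771.11, 2:158610767-158615748) measured 119, 111, 168 and 96.5 TPM in females and 114, 86.2, 101 and 69.7 TPM in males. By TPM, female 3 was the highest and male 4 the lowest of the 8 mice in each of the 3 GABA genes. In CPM, male 1 was the highest for *Gad1*, at 341 with female 3 at 335.

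**Figure D1:**
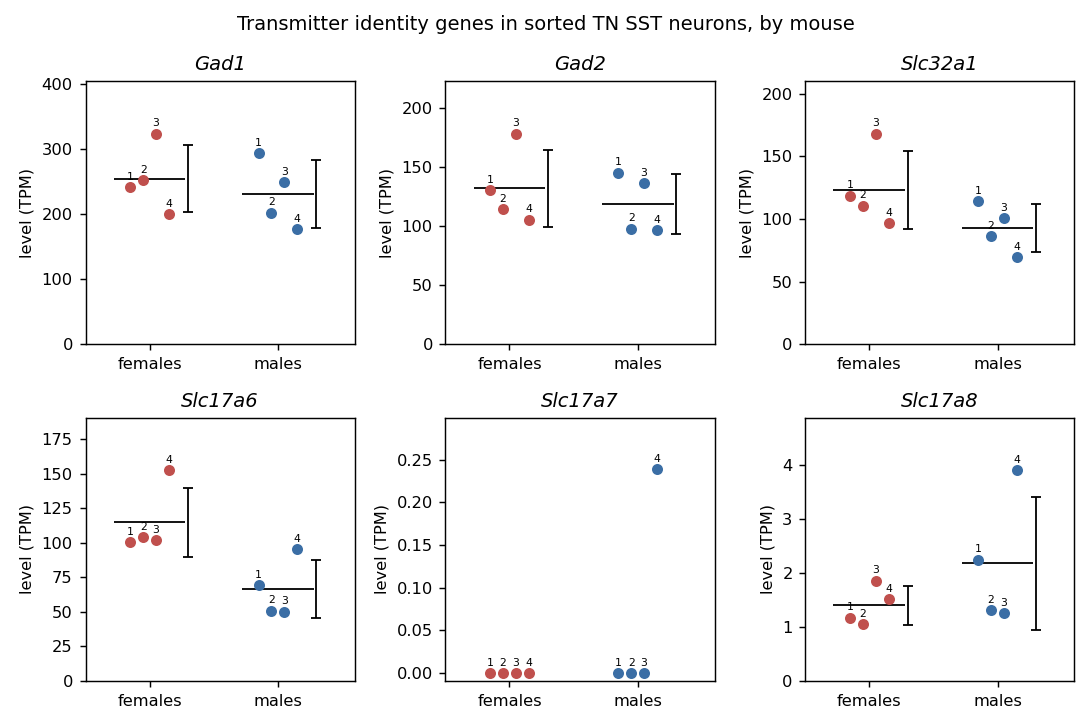
Level of each of the 6 genes in TPM (vertical axes, each from 0 up, with its own scale) in 4 females (red) and 4 males (blue), numbered by mouse. Horizontal lines are means and bars are SD, left out for *Slc17a7*, which had 2 counts in male 4 and none in the other mice. All females lay above all males for *Slc17a6* in TPM, and female 4 and male 4 were the highest of their sex.

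On the glutamate side, only *Slc17a6* was abundant. *Slc17a6* (ENSMUSG00000030500.6, 7:51622006-51671119) stood at 100.4, 104, 102 and 152 TPM in females 1 to 4, whereas males 1 to 4 had 69.4, 50.9, 50.2 and 95.3 TPM. By TPM the sexes did not overlap, as was the case with every female above every male for 6.11% of the 15194 genes tested, but the lowest female and the highest male were close. *Slc17a8* (ENSMUSG00000019935.16, 10:89574020-89621253) was detected in all 8 mice at a low level, with 1.17, 1.05, 1.85 and 1.51 TPM in females and 2.24, 1.30, 1.25 and 3.89 TPM in males, from 19.0 to 81.9 estimated counts per mouse. *Slc17a7* (ENSMUSG00000070570.5, 7:45163949-45176142) had no counts in 7 mice and 2 counts in male 4 (0.239 TPM). A limit of 3 counts corresponded to between 0.148 and 0.458 CPM, so *Slc17a7* was not detectable above that level in any library. This limit covers counting error only.

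Within a mouse, by TPM summed over the transcripts of a gene, *Gad1* was the highest and *Slc17a8* the lowest of the 5 detected genes. The order of the 3 between them varied. *Gad1* exceeded *Gad2* in 8 of 8 mice, by 1.82-fold to 2.21-fold in TPM but 1.13-fold to 1.42-fold in CPM per kilobase (all counts of a gene over the length of its longest protein-coding transcript). *Gad2* exceeded *Slc32a1* in 8 of 8 mice by TPM, but by 1.03-fold to 1.38-fold only, and in 7 of 8 mice by TPM of protein-coding transcripts. The mean log2 difference in TPM was 0.23 with an SD of 0.17 over the mice, so that these neighbors lay close together beside their spread. *Slc32a1* exceeded *Slc17a6* in 6 of 8 mice by TPM, from 0.634-fold in female 4 to 2.01-fold in male 3, so that VGAT and VGLUT2 were also neighbors that could not be ordered on that scale. In female 4 *Slc17a6* exceeded *Gad2* as well (*Gad2* over *Slc17a6* 0.691). *Slc17a6* exceeded *Slc17a8* in every mouse, by at least 24.5-fold in TPM, 9.23-fold in TPM of coding transcripts and 11.5-fold in CPM per kilobase.

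The 3 GABA genes kept nearly constant proportions from mouse to mouse, while the glutamate genes varied apart from them. The SD over 8 mice of the log2 TPM ratio was 0.10 for *Gad1* over *Gad2*, 0.16 for *Gad1* over *Slc32a1* and 0.17 for *Gad2* over *Slc32a1*. The same SD was 0.61 for *Slc32a1* over *Slc17a6*, 0.65 for *Gad1* over *Slc17a6* and 0.65 for *Gad2* over *Slc17a6*. Between the vesicular glutamate transporters, *Slc17a6* over *Slc17a8*, it was 0.79, but *Slc17a8* rests on few counts. These SDs are descriptions over the same 8 libraries and were not tested. The highest value of *Slc17a6* was in female 4, whose GABA genes were the lowest among females, and the highest male value was in male 4, whose GABA genes were the lowest of all.

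**Figure D2:**
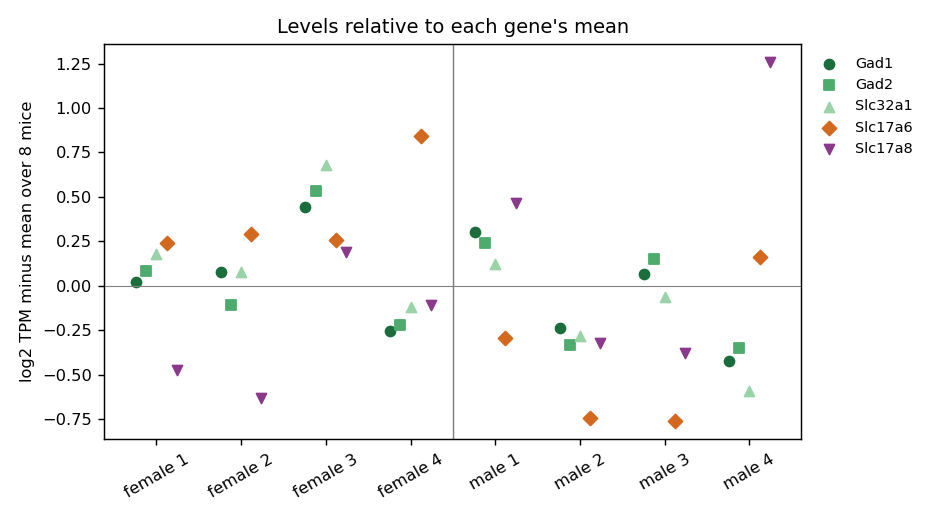
Log2 TPM of each of 5 genes minus that gene's mean over the 8 mice (vertical axis), by mouse (horizontal axis). The green GABA genes stay close to each other in every mouse, with SDs of their log2 ratios between 0.10 and 0.17, whereas *Slc17a6* (orange) lies above all 3 in females 1, 2 and 4 and in male 4, farthest in female 4, and below them in female 3 and males 1, 2 and 3.

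The ratio of GABA to glutamate genes was taken per mouse as the summed TPM of *Gad1*, *Gad2* and *Slc32a1* over the summed TPM of *Slc17a6*, *Slc17a7* and *Slc17a8*. It was 4.83 in female 1, 4.53 in female 2, 6.47 in female 3 and 2.61 in female 4. In males it was 7.73, 7.40, 9.46 and 3.46, in the same order. Every mouse was above 1, female 4 and male 4 were the lowest of their sex, and the sexes overlapped because male 4 lay below females 1, 2 and 3. The mean was 4.61 ± 1.58 (SD, n = 4) in females and 7.01 ± 2.54 (SD, n = 4) in males, a difference of -0.58 on the log2 scale, females minus males. The ratio is a sum over chosen genes, so no p-value is given. GABA genes made up 401.7 to 670 TPM per female and 344 to 553 TPM per male, and glutamate genes 102 to 154 TPM per female and 51.4 to 99.5 TPM per male.

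Transporter against transporter, the balance was close to even by TPM. *Slc32a1* over the summed glutamate transporters was 1.17, 1.05, 1.63 and 0.628 for females 1 to 4, while males 1 to 4 had 1.59, 1.65, 1.96 and 0.701. The ratio was above 1 in 6 of 8 mice, and again lowest in female 4 and male 4. Summing only the synthesis enzymes over the glutamate transporters gave 1.98 to 7.50.

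How far the GABA genes exceeded the glutamate genes depended on which transcripts were counted. Females 1 to 4 had 157, 127, 353 and 282 estimated counts on Slc17a6-204, and males 1 to 4 had 146, 85.5, 101 and 107, against 448 to 1260 per mouse for the coding Slc17a6-201. The share of Slc17a6-204 in the counts of the gene was lowest in male 4, at 10.4% (95% Wilson interval 8.75% to 12.5%). It was highest in female 3, at 21.5% (19.6% to 23.5%). These intervals take the estimated counts of Slc17a6-204 as observed, and leave out error in dividing reads among transcripts. Because TPM divides by length and this transcript is short, the same reads made up 47.0% to 68.6% of the TPM of *Slc17a6*. The coding Slc17a6-201 alone stood at 34.0, 34.9, 30.5 and 49.9 TPM in females and 20.7, 16.3, 18.9 and 46.4 TPM in males, and on this measure the sexes overlapped. A further short noncoding transcript, Slc17a6-202, took up to 5.21% of the counts and up to 17.6% of the TPM.

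*Gad1* showed a like pattern. Gad1-202, a short protein-coding transcript of 1138 bases with 6 exons that ends early within the gene, held 23.2% to 27.7% of the *Gad1* counts but 49.2% to 54.8% of its TPM. The full-length Gad1-201, with 3355 bases and 17 exons, held 64.5% to 73.2% of the counts and 37.3% to 46.3% of the TPM. Of the 31-base stretches of Gad1-202, 70.8% also occur in Gad1-201. *Gad2* counts fell almost wholly on Gad2-201, with 97.4% to 100% per mouse, but the short Gad2-202 still held up to 21.7% of the *Gad2* TPM, in male 4, and up to 7.24% in the other mice. On coding transcripts alone *Gad2* in male 4 was at 75.6 TPM in place of 96.5 TPM. By TPM, the full-length Gad1-201 alone was lower than Gad2-201 in every mouse but male 2 (93.1 against 90.6 TPM). The higher level of *Gad1* thus held for its transcripts summed, and not for the full-length transcript. *Slc32a1* has a single annotated transcript, so that its level does not turn on how reads were divided among transcripts.

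**Figure D3:**
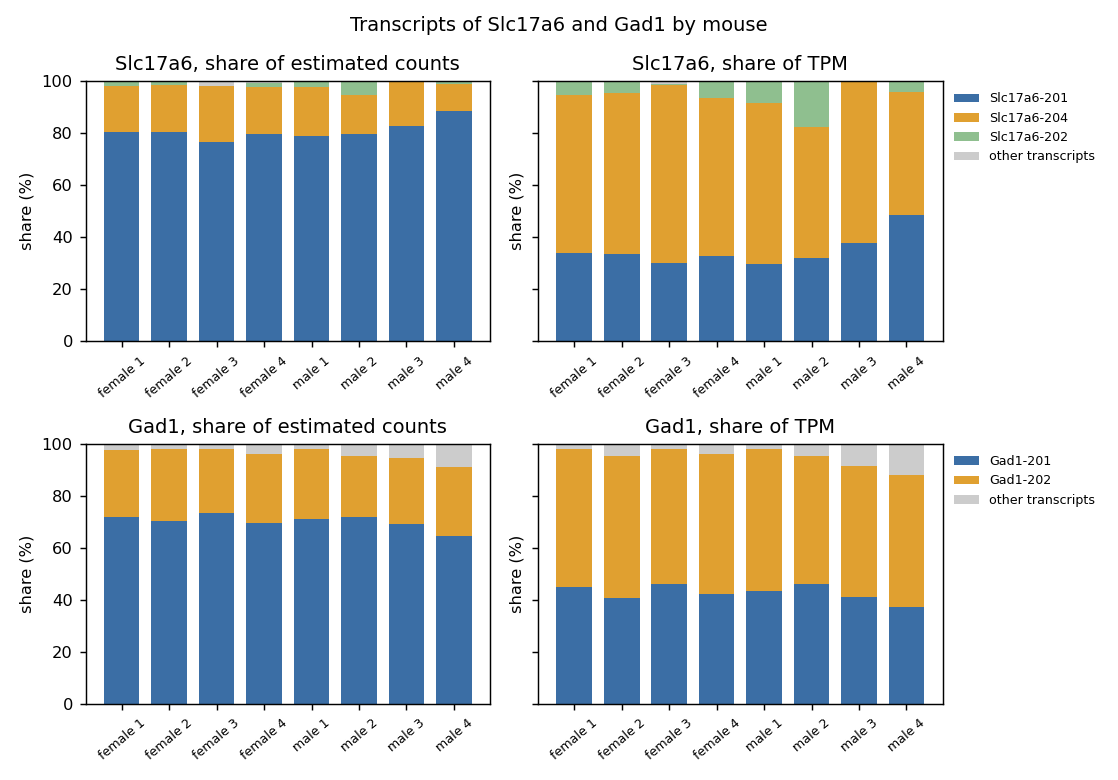
Share of each transcript (stacked bars, percent) in the estimated counts (left) and in the TPM (right) of *Slc17a6* (top) and *Gad1* (bottom), for each of the 8 mice. The short Slc17a6-204 holds 10.4% to 21.5% of the counts and 47.0% to 68.6% of the TPM, and Gad1-202 holds 23.2% to 27.7% of the counts and 49.2% to 54.8% of the TPM.

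Counting protein-coding transcripts alone, the ratio of the 3 GABA to 3 glutamate genes was 13.7, 13.2, 20.3 and 7.76 for females 1 to 4. For males 1 to 4 it was 23.8, 21.2, 23.0 and 6.23. This measure leaves out the short noncoding transcripts of *Slc17a6* but keeps the short Gad1-202, which is annotated as protein-coding. Gad1-202 held 49.2% to 54.8% of the TPM of *Gad1*. Short transcripts were thus removed mainly from the glutamate side. A ratio without Gad1-202 would be lower and was not computed. In CPM per kilobase the ratio was 9.08, 8.26, 13.0 and 5.04 in females and 15.0, 14.0, 16.0 and 4.42 in males. On both measures every mouse was well above 1, the sexes overlapped, and female 4 and male 4 stayed the lowest of their sex. *Slc32a1* over the glutamate transporters was then above 1 in 8 of 8 mice, at 1.38 to 5.21 for coding transcripts and 1.23 to 4.22 for CPM per kilobase. The mean ratio over the 8 mice was 5.81 by TPM, 10.6 in CPM per kilobase and 16.1 for coding transcripts. The size of the ratio thus depended on the measure, whereas the 2 lowest mice did not change. The 2 blocks of values deposited for each mouse gave log2 ratios that differed by between 0.019 and 0.61, most in male 1, where the ratio was 9.79 in the first block and 6.39 in the second.

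**Figure D4:**
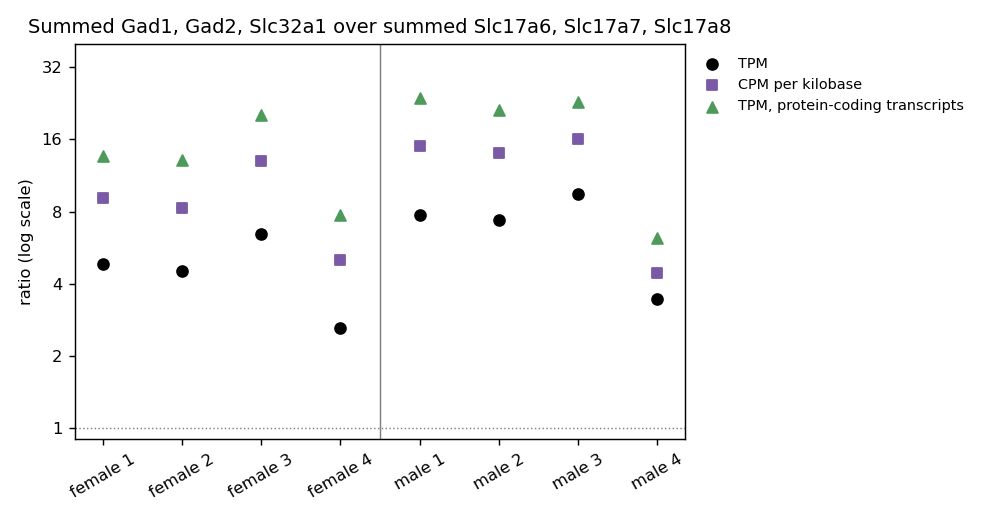
Ratio of summed GABA genes to summed glutamate genes (vertical axis, log scale) in each of the 8 mice, by TPM (circles), CPM per kilobase (squares) and TPM of protein-coding transcripts (triangles). All points lie above 1 (dotted line), from 2.61 to 9.46 by TPM, and female 4 and male 4 are the lowest of their sex on all 3 measures.

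Between the sexes, none of the 5 genes passed an adjusted p under 0.05 by the quasi-likelihood test of edgeR (Benjamini-Hochberg over 15194 genes), where 0.158% of all genes did (24 genes). DESeq2 did not call them either, where it called 7.35% of all genes. *Gad1* measured 282 ± 47.6 CPM among females and 271 ± 57.5 CPM among males (SD, n = 4 per sex here and below), or 0.06 ± 0.17 (SE) as a log2 fold change, females over males, with an adjusted p of 0.867 from edgeR. *Gad2* measured 404 ± 60.8 and 371 ± 92.6 CPM, a log2 fold change of 0.12 ± 0.18 (adjusted p = 0.733). For both enzymes the difference was smaller than its standard error. *Slc32a1* stood at 183 ± 34.2 CPM among females and 147 ± 26.6 CPM among males, a log2 fold change of 0.32 ± 0.16 (edgeR adjusted p = 0.294), and the sexes overlapped. *Slc17a6* stood at 107 ± 25.1 CPM among females and 73.9 ± 36.8 CPM among males, a log2 fold change of 0.54 ± 0.30 (edgeR adjusted p = 0.329). In CPM, male 4 at 129 lay above 3 females at 98.6, 108 and 81.1, while males 1, 2 and 3 at 62.8, 51.6 and 52.7 lay below every female. Without male 4 its log2 fold change was 0.94 (edgeR adjusted p = 0.164). *Slc17a8*, at 3.29 ± 0.527 CPM in females and 5.72 ± 3.32 CPM in males, gave a log2 fold change of -0.78 ± 0.39 (edgeR adjusted p = 0.293), with male 4 at 10.3 CPM. Without male 4 its log2 fold change was -0.34 (edgeR adjusted p = 0.628).

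Exact 2-sided permutation tests of log2 CPM over the mice, whose smallest possible p is 0.0286, gave p = 0.686 for *Gad1*, 0.571 for *Gad2*, 0.143 for *Slc32a1*, 0.143 for *Slc17a6* and 0.200 for *Slc17a8*. The median fitted log2 fold change was 0.12 over the 3 GABA genes, beside -0.0043 over all genes tested. The 2 glutamate genes tested went opposite ways, *Slc17a6* at 0.54 and *Slc17a8* at -0.78, so their median of -0.12 described neither. Of the 5 genes, 4 had a higher fitted mean in females, where 49.4% of all genes did. A p above the threshold does not show that the sexes were alike.

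**Figure D5:**
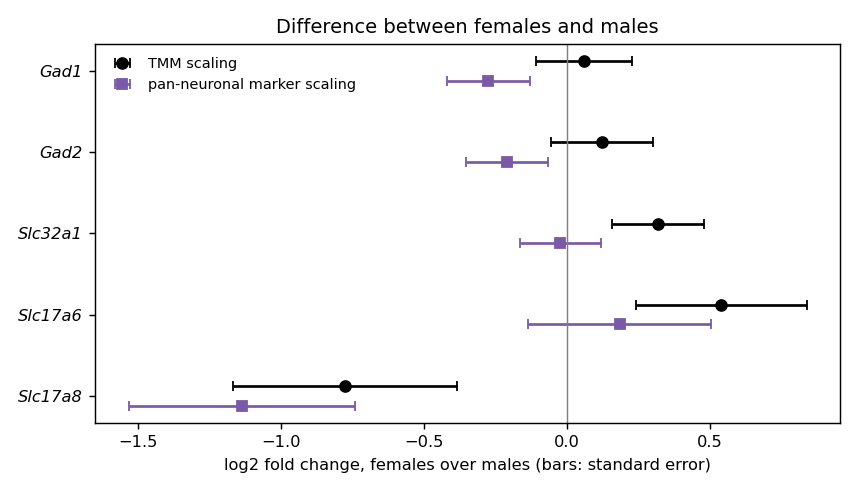
Log2 fold change of females over males (horizontal axis) for the 5 genes tested, with bars of 1 standard error, from the edgeR fit scaled by TMM (circles) and with library sizes set by 8 pan-neuronal markers (squares). Scaling by neuronal markers moves all 5 to the left, by about as much as the median of all genes (-0.35), and takes *Gad1*, *Gad2* and *Slc32a1* below 0.

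Markers of neurons and glia were measured in the same libraries. The 8 pan-neuronal markers all had a higher fitted mean in females, as 49.4% of all genes did, and for 5 of them every female lay above every male in CPM, as for 6.48% of all genes. They summed to 2715 to 3859 TPM in females and 2056 to 2637 TPM in males. None passed the edgeR test, the smallest adjusted p being 0.065, where 0.158% of all genes did. DESeq2 called 5 of the 8, where it called 7.35% of all genes. Without female 1 edgeR called 4 of them and 2.67% of all genes, and without male 1 it called 3 and 2.65%. Summed microglia markers ran from 180 to 1048 TPM in females and 390 to 1889 TPM in males, oligodendrocyte markers from 312 to 1495 and 526 to 1333 TPM, astrocyte markers from 70.5 to 241 and 196 to 409 TPM, and endothelial markers from 15.6 to 48.6 and 16.7 to 46.2 TPM. All 5 astrocyte, 5 microglia and 5 oligodendrocyte markers, and 3 of 4 endothelial markers, had a lower fitted mean in females, and no marker was at 0 in any mouse. Among the highest were *Eno2* and *Snap25* among neuronal markers (560 to 1116 and 466 to 1050 TPM), *Mbp* of myelin (101 to 553 TPM), *C1qa* and *Csf1r* of microglia (58.4 to 1085 and 67.6 to 789 TPM), *Slc1a3* and *Gja1* of astrocytes (42.4 to 165 and 14.9 to 63.4 TPM), and *Pecam1* and *Flt1* of endothelium (5.03 to 23.1 and 2.36 to 15.4 TPM). Their part in the differences of the transmitter genes was not tested. As a percent of the summed pan-neuronal TPM, *Gad1* was 8.08 ± 1.20 in females and 9.65 ± 1.37 in males, *Gad2* 4.17 ± 0.67 and 4.96 ± 0.57, *Slc32a1* 3.90 ± 0.62 and 3.89 ± 0.56, and *Slc17a6* 3.69 ± 0.89 and 2.82 ± 0.97 (SD, n = 4 per sex). With library sizes set by these markers in the edgeR fit, the median of all genes moved to -0.35 and the log2 fold change of *Gad1* to -0.28, of *Gad2* to -0.21 and of *Slc32a1* to -0.02. Relative to that median the changes were 0.08 for *Gad1*, 0.14 for *Gad2*, 0.33 for *Slc32a1*, 0.54 for *Slc17a6* and -0.78 for *Slc17a8*, close to those under TMM.

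*Sst*, the gene that drove the label, was present in every library at 948 to 1883 TPM in females and 898 to 1140 TPM in males, and did not differ between the sexes by the test (log2 fold change 0.32 ± 0.17, edgeR adjusted p = 0.302). Genes of glutamatergic neurons outside the TN varied more. *Fezf1*, a transcription factor of ventromedial nucleus neurons, stood at 17.6, 17.9, 20.7 and 40.8 TPM in females 1 to 4, with 2.39, 2.48, 2.78 and 16.6 TPM in males 1 to 4. *Adcyap1*, which encodes the neuropeptide PACAP made by the same nucleus, stood at 73.7, 67.1, 36.6 and 137 TPM in females and 19.9, 20.8, 36.4 and 67.1 TPM in males. Both were highest in female 4 among females and in male 4 among males, the mice with the lowest GABA to glutamate ratios. So was *Nr5a1*, the defining transcription factor of the ventromedial nucleus, at 3.52 TPM in female 4 and 5.37 TPM in male 4 of a range from 1.08 to 5.37 TPM. The other 2 genes of the list did not follow this order, with *Sox14* lowest among females in female 4 (1.35 TPM) and highest among males in male 1 (2.24 TPM), and *Bdnf* highest in female 4 (6.79 TPM) and, among males, in male 2 (3.84 TPM). Summed over the 5 genes the level was 64.3 to 189 TPM in females and 27.1 to 93.9 TPM in males. Their part in the ratio was not tested. None of the 5 passed the test between the sexes, with log2 fold changes of 1.92 ± 0.65 for *Fezf1* (edgeR adjusted p = 0.170), 1.22 ± 0.58 for *Adcyap1* (0.269), 0.56 ± 0.35 for *Bdnf* (0.386), 0.014 ± 0.33 for *Sox14* (0.987) and -0.44 ± 0.59 for *Nr5a1* (0.708). Without male 4, the highest male in *Fezf1*, this gene passed, with a log2 fold change of 3.16 (edgeR adjusted p = 0.030). It was the only 1 of the 5 to do so, where 0.084% of all genes passed.

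Genes that supply, clear and break down the transmitters were present alongside, and none of them passed the edgeR test between the sexes. *Abat*, the transaminase that breaks down GABA, was at 97.6 to 160 TPM. Of 6 genes of GABA breakdown and membrane transport, 4 were tested and 3 had a higher fitted mean in females, and their median log2 fold change was 0.11. Among 8 genes of glutamate supply the highest were *Glul*, the glutamine synthetase of astrocytes, at 121 to 508 TPM, and *Got1*, an aspartate aminotransferase, at 158 to 218 TPM. Their median log2 fold change was 0.0061, and the smallest adjusted p, 0.094, belonged to the glutamine transporter *Slc38a2*, for which all females lay below all males in CPM, as for 3.94% of all genes. *Slc38a2* passed with DESeq2 (adjusted p = 0.0035), which called 7.35% of all genes, and in edgeR without male 1, where 2.65% were called. With library sizes from pan-neuronal markers *Slc38a2* and *Slc38a1* passed (edgeR adjusted p = 0.042 each), as 12.5% of all genes did. The median of all genes was then -0.35. In the main fit *Slc38a1* had a log2 fold change of -0.095 (edgeR adjusted p = 0.495). Membrane glutamate transporters were led by the astrocyte genes *Slc1a3* (42.4 to 165 TPM) and *Slc1a2* (41.0 to 138 TPM), with a median of -0.26 over 4 genes. Vesicular transporters of other transmitters were low, with *Slc18a2*, the monoamine transporter VMAT2, at 2.20 to 5.76 TPM and *Slc18a3*, the acetylcholine transporter, at 0.417 to 3.70 TPM, and the other 2 had too few counts to be tested.

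Transcription factors of the GABA lineage were detected in every mouse. *Dlx6* and *Dlx1*, homeodomain factors that specify forebrain GABA neurons, were at 7.86 to 21.7 TPM and 11.5 to 20.4 TPM. All 7 factors of this list were tested, 1 had a higher fitted mean in females, none passed, and the median log2 fold change was -0.34. Of 6 glutamate neuron factors, *Neurod1*, *Neurod2* and *Tbr1* had too few counts to be tested, *Nhlh2* was at 3.07 to 6.57 TPM, and *Fezf1*, which is also a ventromedial nucleus gene, was the only 1 of the 3 tested in which every female lay above every male, as 6.48% of all genes tested did in CPM. Their median log2 fold change was 0.64.

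The genes whose levels over the 8 mice most resembled those of each vesicular transporter were found among 10018 tested genes with a mean of at least 10 CPM, by the root mean square difference of log2 CPM after centering each gene on its mean. For *Slc32a1*, whose own root mean square deviation was 0.28, these were *Dlk1* (0.077), *Arhgap6* (0.081), *Tmem132e* (0.089), *Rnf150* (0.092) and *Six3* (0.099). *Gad2* came 35th with 0.13 and *Gad1* 41st with 0.13, while *Slc17a6* came 8972nd with 0.65. For *Slc17a6*, with its own deviation of 0.53, these were *Dkk3* (0.20), *Kcnh5* (0.22), *Fam84a* (0.25), *Slc24a4* (0.26) and *Lrp1b* (0.27), and *Slc32a1* came 7820th. The ventromedial nucleus genes *Adcyap1* and *Fezf1* came 7433rd (0.63) and 9484th (0.998) for *Slc17a6*, so neither was among the genes most like it. For *Slc32a1* they came 9657th (1.16) and 9875th (1.48). The measure also counts differences in how widely 2 genes vary. *Gad1* and *Gad2* each ranked 4th for the other, at 0.098. All values come from the same 8 libraries, so depth and cell content are shared by every gene, and the likeness is a description.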

How the data were processed

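RNA of sorted TN SST neurons from 4 female and 4 male mice was sequenced by the authors (stranded total RNA, single-end, 1 library per mouse). Per the submitters' processing notes and the methods, the authors assigned reads to mm10 transcripts with kallisto 0.46.2 and deposited estimated counts and TPM, in 2 blocks per mouse, which the authors' sources used here do not explain. The estimated counts deposited are not normalized, and the deposited TPM of each block sum to 1000000, so that a file holds another unit than the single TPM column the design had assumed. Counts of the blocks were summed and TPM averaged, then summed per gene with GENCODE M21 (116728 of 118489 transcripts matched, with 0.429% to 0.611% of counts left out). Depth per mouse was 7.83 to 17.6, in units of 1000000 counts, which sets the limit of detection. *Lars2* held 9.28% to 34.3% of them.

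Rounded counts per gene were tested with edgeR 4.0.16, which uses limma 3.58.1, under R 4.3.3 (TMM factors 0.841 to 1.16, default low-count filter, sex as the only term, adjusted p under 0.05). DESeq2 1.42.0, other normalizations and filters, a replicate block, a transcript length offset, pan-neuronal scaling, each block alone and leaving out each mouse were alternatives. The test was tried on simulated counts. For log2 CPM the prior count was 2. Joins, exact tests and plots used pandas 2.3.3, numpy 2.4.6, scipy 1.17.1 and matplotlib 3.10.9 in Python 3.11.15. The labels do not say whether mice of the same number share a litter or day. Members and lists were chosen with earlier results of these data known. Named genes are the 6 members, *Sst*, the 2 highest of each list (some are not reported here), the 5 most like *Slc32a1* and *Slc17a6*, and, named after their values were seen, *Nr5a1*, *Sox14*, *Bdnf*, *Slc38a1*, *Slc38a2*, *Neurod1*, *Neurod2* and *Tbr1*.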

Additional observations from a re-analysis of the deposited data

Results flagged for a closer look

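Within each sex, the highest or lowest mouse was set against the others by Dixon's gap test, over 30 series of 4 mice, and 4 values stood apart, where chance marks about 1 in 20 series. *Slc17a6* stood apart in female 4, at 152 TPM with the next female at 104 TPM. It also stood apart in male 4, at 129 CPM with the next male at 62.8 CPM. Each stood apart on that scale alone, since the gap over the range was 0.542 for female 4 in CPM and 0.575 for male 4 in TPM, both under the critical value of the test. The 2 counts of *Slc17a7* in male 4 (0.239 TPM, 0.252 CPM) were marked because the other males had 0, and lie under the limit of 3 counts.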

How the results depend on the processing

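The count of 24 genes that differed between the sexes became 1013 with DESeq2's Wald test, 1899 with library sizes from pan-neuronal markers, 13 with the transcript length offset and 1 with the replicate block, and 8 to 415 when 1 mouse was left out (415 without female 1, 411 without male 1). It was between 22 and 32 under the other 5 settings. Over all genes, the deviations of mice of the same number had correlations of -0.396 to 0.072, so the numbers were not taken to pair them. The highest, 0.072, was that of female 4 and male 4, which also had the lowest GABA to glutamate ratio of their sex. Whether these mice shared a day or litter was not tested. None of the 5 members passed the threshold under any of the 17 alternatives each, whose adjusted p ranged from 0.168 to 0.946 for *Gad1*, 0.276 to 0.985 for *Gad2*, 0.145 to 0.904 for *Slc32a1*, 0.164 to 0.670 for *Slc17a6* and 0.069 to 0.628 for *Slc17a8*. Pan-neuronal scaling reversed *Gad1* (-0.28), *Gad2* (-0.21) and *Slc32a1* (-0.024). Leaving out 1 mouse gave log2 fold changes of -0.057 to 0.19 for *Gad1*, reversed without female 3 (-0.035) and without male 4 (-0.057), and of -0.0079 to 0.25 for *Gad2*, reversed without male 4 (-0.0079). *Slc17a6* stayed higher in females and *Slc17a8* higher in males under all of these. The replicate block changed no other call.

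The mean log2 ratio of GABA to glutamate genes was 2.42, and moved to 3.19 in CPM, 3.87 for protein-coding transcripts and 3.27 with all counts on the longest protein-coding transcript. The cause of these moves was not tested. The mean was 0.30 for *Slc32a1* over *Slc17a6* alone and 0.27 for *Slc32a1* over the 3 *Slc17a* genes. The blocks alone, or without any 1 mouse, moved it by less than its SD over mice. Females minus males stayed between -0.89 and -0.34 under the settings tried. It was smaller for *Slc32a1* over the 3 *Slc17a* genes on other measures. There it was -0.18 for protein-coding transcripts, -0.24 in CPM and -0.25 in CPM per kilobase. The fits on each block, the longest-transcript measure and *Slc32a1* over the 3 *Slc17a* genes were chosen after seeing the data. Depth limits *Slc17a7* and *Slc17a8* most.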
